A study of Homo sapiens with 8 samples.

Results

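The genes described are 30 human genes of cholesterol synthesis and lipogenesis, listed by symbol and looked up in the deposited gene table of 38592 genes. Of these, 8 act between acetyl-CoA and squalene (ACAT2, HMGCS1, MVK, PMVK, MVD, IDI1, FDPS and FDFT1) and 10 between squalene and cholesterol (SQLE, LSS, CYP51A1, TM7SF2, MSMO1, NSDHL, HSD17B7, EBP, SC5D and DHCR7). A further 4 sense or move sterols (SREBF1, SREBF2, INSIG1 and STARD4), and 8 make or desaturate fatty acids (ACLY, ACSS2, ACACA, FASN, SCD, ELOVL6, FADS1 and FADS2). All 30 were found and all 30 passed the filter on low counts, which kept 22184 genes. The list is not the whole pathway, and other enzymes of it are not analysed here.

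Bulk RNA was sequenced from islet-like cells grown from the human embryonic stem cell line H1. Their genotype was a knockout (KO) of ISL1, of PAX6 or of PDX1, all homeobox genes of the pancreas, or wild type (WT). On day 11 of differentiation they were transduced with ISL1 joined through an IRES2 element to a blue fluorescent protein (labelled ISL1 OE) or with the fluorescent protein alone (labelled BFP), and they were harvested on day 18. Every group therefore carried a vector, and no untransduced cells were measured here. There were 3 libraries each of ISL1 KO ISL1 OE, ISL1 KO BFP, PAX6 KO ISL1 OE, PAX6 KO BFP and PDX1 KO BFP, and 2 each of PDX1 KO ISL1 OE, WT ISL1 OE and WT BFP, 21 in all. The series describes them as biological replicates. All genotypes derive from 1 parental line, and the sources used here do not give the number of knockout clones.

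Cholesterol is built from acetyl-CoA through mevalonate, squalene and lanosterol. Its enzymes are controlled together by the SREBP transcription factors, which SREBF1 and SREBF2 encode; when membrane sterol is low they are released from the endoplasmic reticulum, where INSIG proteins otherwise hold them, and they switch on the pathway with the help of NF-Y and Sp1. SREBP-1 acts more on fatty acid synthesis and SREBP-2 more on sterol synthesis. In endocrine cells of the islet, cholesterol is a component of the secretory granule membrane.

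Upstream sequence is shown for SREBF2 and for INSIG1, MSMO1 and STARD4, which were called in several of the comparisons below, because this is the region through which SREBPs and NF-Y are known to act. CYP51A1 and ACSS2 were also called in several comparisons and are not shown, so these windows do not stand for the called genes as a set. Each line holds the 250 bases before the RefSeq start site, on the gene's own strand, in GRCh38.p14. Capitals mark the NF-Y box CCAAT, or ATTGG where it lies on the other strand, and in SREBF2 the sterol regulatory element core TCACNCCAC. The windows are chr22:41832855-41833104 on the plus strand for SREBF2, chr7:155297628-155297877 on the plus strand for INSIG1, chr4:165327419-165327668 on the plus strand for MSMO1 and chr5:111512536-111512785 on the minus strand for STARD4.
SREBF2: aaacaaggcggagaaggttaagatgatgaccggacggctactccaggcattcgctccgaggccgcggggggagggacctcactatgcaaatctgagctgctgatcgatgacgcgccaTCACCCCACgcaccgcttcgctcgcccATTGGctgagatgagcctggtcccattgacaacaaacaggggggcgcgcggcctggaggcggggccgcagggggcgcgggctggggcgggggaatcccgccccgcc
INSIG1: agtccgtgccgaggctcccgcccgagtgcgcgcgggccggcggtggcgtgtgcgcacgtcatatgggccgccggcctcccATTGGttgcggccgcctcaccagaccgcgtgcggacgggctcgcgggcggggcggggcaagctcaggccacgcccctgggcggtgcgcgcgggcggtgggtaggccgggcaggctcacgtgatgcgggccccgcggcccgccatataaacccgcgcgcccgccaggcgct
MSMO1: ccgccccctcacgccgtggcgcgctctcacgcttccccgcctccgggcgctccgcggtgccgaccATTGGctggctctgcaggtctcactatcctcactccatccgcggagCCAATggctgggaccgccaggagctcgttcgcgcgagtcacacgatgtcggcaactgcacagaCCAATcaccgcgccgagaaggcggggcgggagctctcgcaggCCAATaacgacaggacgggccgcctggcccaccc
STARD4: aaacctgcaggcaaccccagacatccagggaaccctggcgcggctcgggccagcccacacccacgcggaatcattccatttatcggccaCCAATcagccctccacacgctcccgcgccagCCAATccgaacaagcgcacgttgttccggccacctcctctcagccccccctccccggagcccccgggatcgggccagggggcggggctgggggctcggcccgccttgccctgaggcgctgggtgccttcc

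The SREBF2 window held the sterol element core from 133 bases before the start and a CCAAT box from 106 bases before it. INSIG1 had 1 CCAAT box, MSMO1 4 and STARD4 2. Of the called genes not shown, CYP51A1 and ELOVL6 had none. ACSS2, DHCR7, HMGCS1, IDI1, MVK and SC5D had at least 1 over their windows, and SQLE had no window at hand. Upstream sequence was at hand for 26 of the 30 genes, in 36 windows since some genes have several start sites. CCAAT on either strand stood in 24 of the 36 windows (66.7%), in 20 genes, against 32.0% of all 35116 windows of this length. The Sp1-type GC box GGGCGG stood in 88.9% of the 36 windows and in 42.6% of all windows. The exact core TCACNCCAC stood in SREBF2 alone (2.78%), against 0.883% of all windows, and the E-box CACGTG in 8.33% against 6.34%. These matches describe letters in a window, not binding.

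The libraries held 40959467 to 66818614 counts each and 24731 to 27320 detected genes. Levels of 1 gene across libraries are given as CPM, counts divided by the TMM-scaled library size, and levels of different genes are compared only as deposited TPM, which is scaled by transcript length. In bulk RNA, fewer cells of a type and less RNA per cell cannot be told apart. ISL1 was at 61.6 to 84 CPM in the 6 ISL1 KO libraries, against 285 to 484 CPM in the 4 WT libraries. Under BFP it fell in ISL1 KO, against WT (log2 fold change -2.51 ± 0.38, SE; adjusted p = 0.000831). PAX6 and PDX1 RNA were not called different between their own knockouts and WT under BFP (-0.52 ± 0.43 for PAX6 and 0.25 ± 0.23 for PDX1), so RNA level does not check those labels. Nor was ISL1 RNA called higher with the ISL1 vector in any genotype, with log2 fold changes of 0.11 in ISL1 KO, 0.15 in PAX6 KO, 0.54 in PDX1 KO and -0.27 in WT. The gene-level tables thus do not show the vector, and its groups are written as labelled ISL1 OE.

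A pair of libraries stood apart, PAX6 KO ISL1 OE replicate 3 and PDX1 KO ISL1 OE replicate 4. Correlation within a group was as low as 0.927 in PAX6 KO ISL1 OE and 0.9 in PDX1 KO ISL1 OE, and at least 0.982 in the other groups. Among 10855 genes with a mean of at least 10 CPM, genes with transcripts over 8000 bases were lower, relative to genes of up to 2000 bases, by a median log2 of -2.41 in PDX1 KO ISL1 OE replicate 4 and -1.92 in PAX6 KO ISL1 OE replicate 3. The same measure lay between -0.281 and 0.3 in the other 19 libraries. The 30 lipid genes were split along their lengths in both libraries: EBP, with 1775 bases, was 2.36 higher on the log2 scale in PDX1 KO ISL1 OE replicate 4 than in replicate 2, and FDPS, with 1478 bases, 1.81 higher. LSS, with 4936 bases, was at -2.85 in the same difference, and SREBF2, with 5365 bases, at -3.29. Over the 30 genes the Spearman correlation of length with this difference was -0.78, and -0.6 over all 10855 genes. For PAX6 KO ISL1 OE replicate 3 against the mean of replicates 1 and 2 it was -0.83, and -0.64 over all genes. Every result is therefore given with all 21 libraries and, where it changes a count, without these 2. Leaving both out reduced the common dispersion, the shared measure of spread, to 0.0344, against 0.114 with all. More genes of the whole table passed the test in every comparison except that of the vector in PDX1 KO.

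**Figure D1:**
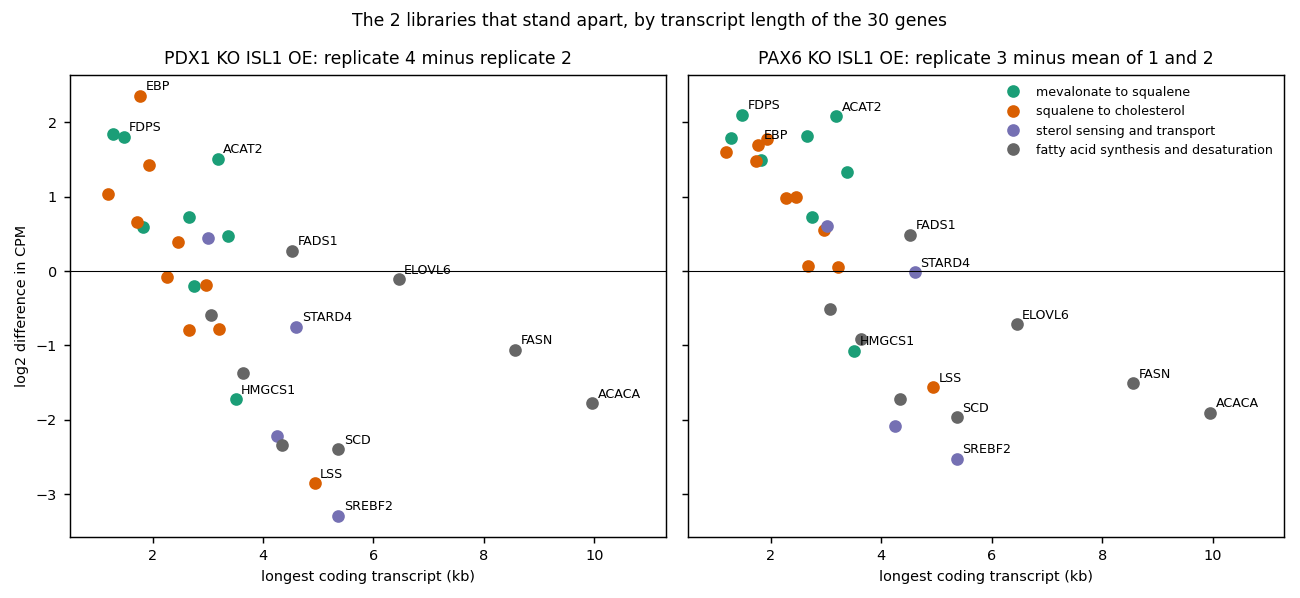
Each point is 1 of the 30 genes, with transcript length in kilobases on the x axis and the log2 difference of a library that stands apart from its group on the y axis. Shorter genes lie mostly above 0 and longer genes mostly below it in both libraries, with Spearman correlations of -0.78 for PDX1 KO ISL1 OE replicate 4 and -0.83 for PAX6 KO ISL1 OE replicate 3 (n = 30 genes).

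By TPM, SCD, which introduces the first double bond into saturated fatty acids, was the most abundant of the 30, with a median of 421 TPM over the 21 libraries and a range of 32.9 to 750 TPM. FADS2, a desaturase of polyunsaturated fatty acids, followed at a median of 377 TPM, then FDPS (farnesyl diphosphate synthase) at 319 TPM and FDFT1 (squalene synthase) at 310.0 TPM. IDI1 (isopentenyl diphosphate isomerase) lay at 306.5 TPM, TM7SF2 (a sterol reductase) at 248 TPM, FADS1 (a desaturase) at 229 TPM and MSMO1 at 227 TPM. Next came ACAT2, which starts the pathway, and CYP51A1 (both 168), EBP (154), ACLY (151), DHCR7 (147), LSS (146), MVD (146), HMGCS1 (141), INSIG1 (138), SQLE (126.2), SREBF2 (106) and PMVK (103). SREBF1 had a median of 96.8 TPM, SC5D 81.8, NSDHL 66.6, HSD17B7 49.6, STARD4 40.0 and ACACA 37.8 TPM. The lowest medians belonged to FASN (fatty acid synthase), at 18.3 TPM, and MVK (mevalonate kinase), at 20.8 TPM. ELOVL6, an elongase of long-chain fatty acids, lay at 25.8 TPM and ACSS2, which makes acetyl-CoA from acetate, at 29.7 TPM. Neighbours in this order overlapped widely in their ranges over libraries. SREBF1 has upstream and downstream start sites. In the 19 libraries other than the 2 that stand apart, the 2 coding transcripts from its upstream start lay at 11.5 to 26.0 TPM (SREBF1-201) and 18.6 to 49.8 TPM (SREBF1-202), and the coding transcript from its downstream start at 1.72 to 6.03 TPM (SREBF1-206).

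As a sum the 30 genes were highest in PDX1 KO BFP and lowest in ISL1 KO labelled ISL1 OE. The summed level was 4773, 5035 and 5022 CPM in ISL1 KO ISL1 OE, and 6293, 6742 and 6724 CPM in ISL1 KO BFP. It was 5850.0, 5316 and 6786 CPM in PAX6 KO ISL1 OE, and 8906, 6771 and 8928 CPM in PAX6 KO BFP. PDX1 KO ISL1 OE had 7456 and 6059 CPM, and PDX1 KO BFP 11290.0, 10860.0 and 11460.0 CPM. The sum was 8369 and 7363 CPM in WT ISL1 OE, and 8568 and 9664 CPM in WT BFP. All 3 PDX1 KO BFP libraries exceeded every other library, and all 3 ISL1 KO ISL1 OE libraries lay below every other library. Gene by gene, 19 of 30 had their highest group mean in PDX1 KO BFP and 19 of 30 their lowest in ISL1 KO ISL1 OE. By TPM these were 21 and 19.

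**Figure D2:**
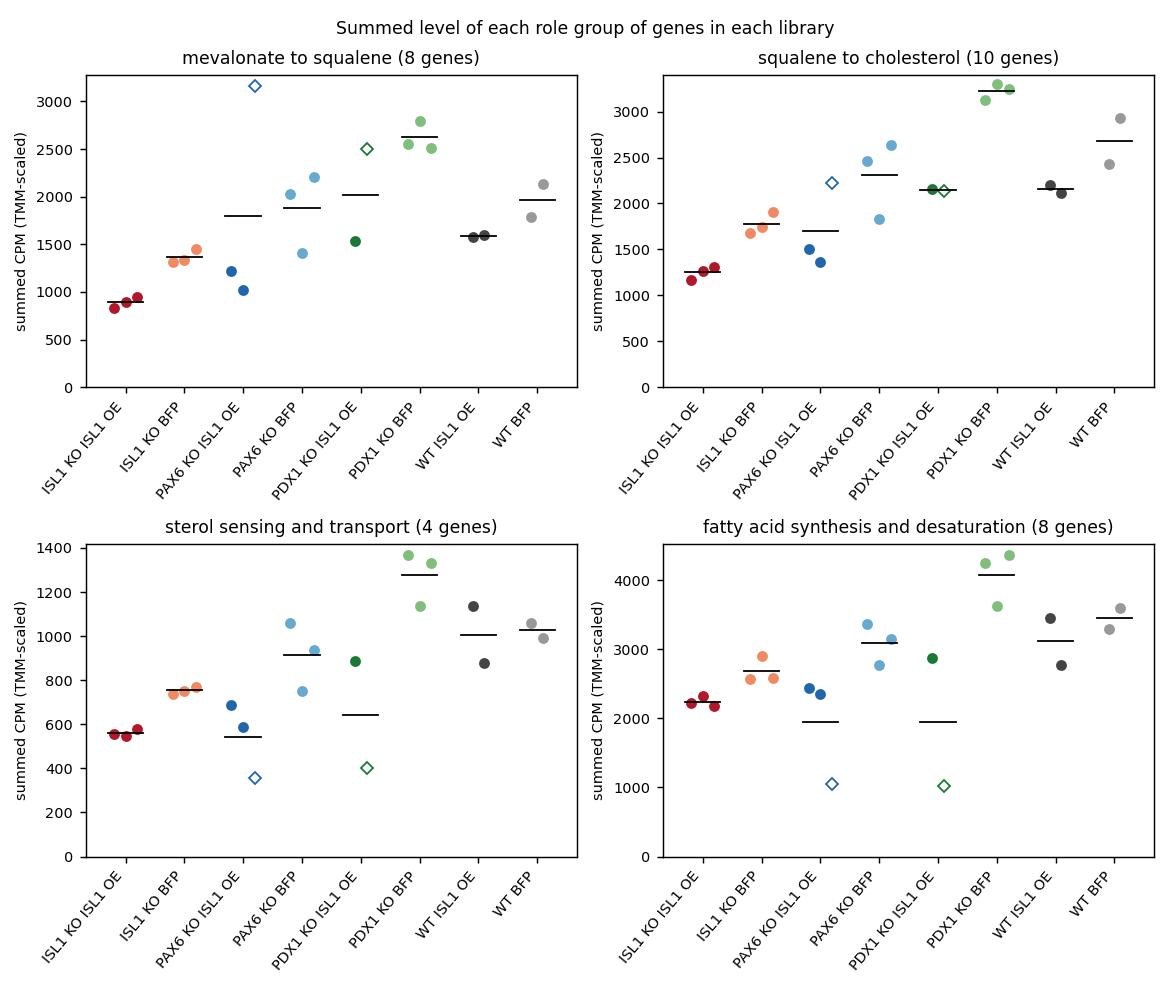
Summed CPM of the genes of each role (4 panels, linear y axis from 0) in every library, by group along the x axis; bars are group means and open diamonds are the 2 libraries that stand apart. The genes from mevalonate to squalene sum to 830.2 to 950.0 CPM in ISL1 KO ISL1 OE and to 2514 to 2798 CPM in PDX1 KO BFP, and the diamonds lie high for that role (3165 CPM in PAX6 KO ISL1 OE replicate 3) and low for fatty acid genes (1045 and 1015 CPM).

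The knockout comparisons ask which genes depend on ISL1, PAX6 or PDX1 in cells that received the control vector. In ISL1 KO BFP, against WT BFP, 5 of the 30 genes fell and none rose, by edgeR's quasi-likelihood test at an adjusted p under 0.05. Of all genes tested, 6.53% were called in this comparison, 4.48% lower and 2.05% higher. The 5 were CYP51A1 and MSMO1, which remove methyl groups from lanosterol and its products, INSIG1, the sterol-sensing retention factor, STARD4, a carrier of cholesterol between membranes, and ACSS2. INSIG1 is itself a target of the SREBPs it holds back.

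MSMO1 was at 219, 239 and 251 CPM in ISL1 KO BFP, against 485 and 647 CPM in WT BFP. CYP51A1 was at 239, 281 and 268 CPM in ISL1 KO BFP, against 479 and 556 CPM in WT BFP. In both genes every knockout library lay below both WT libraries, with a gap wider than the spread among the knockouts. MSMO1 fell by 1.26 ± 0.27 on the log2 scale (SE; adjusted p = 0.0101) and CYP51A1 by 0.98 ± 0.22 (adjusted p = 0.0134). Neither call survived the loss of WT BFP replicate 3, where the adjusted p reached 0.155 for MSMO1 and 0.132 for CYP51A1. CYP51A1 also missed the threshold without ISL1 KO BFP replicate 1 (adjusted p = 0.0625) or 3 (0.0508) or WT BFP replicate 1 (0.0529).

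INSIG1 was at 201, 166 and 180.4 CPM in ISL1 KO BFP, against 439 and 421 CPM in WT BFP. STARD4 was at 46.4, 58 and 50.9 CPM in ISL1 KO BFP, against 128 and 139 CPM in WT BFP. ACSS2 was at 29.8, 29.8 and 29.9 CPM in ISL1 KO BFP, against 70.6 and 81 CPM in WT BFP. The knockout libraries lay close together and far below WT in all 3 genes, ACSS2 the tightest. ACSS2 fell by 1.35 ± 0.21 (adjusted p = 0.000946), STARD4 by 1.37 ± 0.26 (adjusted p = 0.00462) and INSIG1 by 1.24 ± 0.27 (adjusted p = 0.0102). The calls of ACSS2 and STARD4 held in all 13 alternatives tried for them, with adjusted p-values of at most 0.0215 and 0.0458; that of INSIG1 held in 10 of 13 and reached 0.0948 without WT BFP replicate 1, 0.075 without WT BFP replicate 3 and 0.0503 without ISL1 KO BFP replicate 2. STARD4 shares 365 bases with the antisense gene STARD4-AS1, ACSS2 715 with GGT7 and CYP51A1 200 with CYP51A1-AS1, all on the opposite strand. Among genes called in comparisons below, MVK shares 620 bases with MMAB on the opposite strand. Opposite-strand noncoding genes share 1445 bases with HMGCS1, 3484 with DHCR7 and 5050 with IDI1. These unstranded libraries cannot separate the reads of such stretches by strand.

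The rest of the list moved less evenly. Over the 30 genes the median log2 fold change in ISL1 KO BFP against WT BFP was -0.48, and 0.03 over all genes tested. The groups did not overlap for 21 genes that were lower in ISL1 KO, where 26.6% of all genes were lower without overlap, and for 4 that were higher, where 27.7% of all genes were. SC5D, the lathosterol oxidase, missed the threshold at -0.92 ± 0.27 (adjusted p = 0.0527), as did SQLE, squalene epoxidase, at -0.67 ± 0.22 (adjusted p = 0.076). Without the 2 libraries that stand apart, neither of which is in this comparison, 15 genes fell and 1 rose, where 28.5% of all genes were called. The 15 held 8 of the 10 genes from squalene to cholesterol but 2 of the 8 from mevalonate to squalene (ACAT2 and IDI1); the gene that rose was FASN. Leaving out WT BFP replicate 1 reduced the 5 calls to 3, where 1.93% of all genes were called, and leaving out WT BFP replicate 3 reduced them to 2, where 2.03% were.

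In PAX6 KO BFP, against WT BFP, 3 of the 30 genes fell, INSIG1, ACSS2 and ELOVL6, and none rose, where 6.65% of all genes were called, 4.25% lower and 2.41% higher. INSIG1 was at 285, 145 and 221 CPM in PAX6 KO BFP, against the 439 and 421 CPM of WT BFP given above. ACSS2 was at 39, 36.2 and 49.6 CPM in PAX6 KO BFP, against 70.6 and 81 CPM in WT BFP. ELOVL6 was at 44.2, 56.5 and 47.9 CPM in PAX6 KO BFP, against 86.9 and 89.6 CPM in WT BFP. No knockout library reached the WT range in any of them, although INSIG1 varied widely among the knockouts, with replicate 2 lowest. INSIG1 fell by 0.99 ± 0.27 (adjusted p = 0.0352), ACSS2 by 0.86 ± 0.21 (adjusted p = 0.0203) and ELOVL6 by 0.83 ± 0.20 (adjusted p = 0.0203). Each of these 3 calls held in 7 of 13 alternatives. Only INSIG1 was still called without PAX6 KO BFP replicate 1, only ELOVL6 without replicate 2 and only ACSS2 without replicate 3. No call therefore held with each library left out in turn. The share of all genes called is not given for these settings. Leaving out WT BFP replicate 1 or 3 left 1 library for WT. The log2 fold changes were then -0.92 and -0.99 for INSIG1, -0.93 and -0.74 for ACSS2 and -0.82 and -0.79 for ELOVL6. The groups did not overlap for 10 genes that were lower and 5 that were higher, where 26.4% and 25% of all genes were. Over the list the median log2 fold change was -0.13, against 0.00 over all genes, and it was 0.10 with library size alone as scaling, which moved all genes to 0.24. MSMO1 was at 349, 235 and 392 CPM in PAX6 KO BFP, against 485 and 647 CPM in WT BFP, and was not called with all libraries. Without the 2 libraries that stand apart, 9 genes fell (IDI1, CYP51A1, MSMO1, EBP, SC5D, INSIG1, ACSS2, ELOVL6 and FADS1) and LSS, ACACA and FASN rose, where 28.8% of all genes were called.

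In PDX1 KO BFP, against WT BFP, the only gene of the 30 called was ELOVL6, which fell; 11.4% of all genes were called, 6.84% lower and 4.56% higher. ELOVL6 was at 57, 53.6 and 56.4 CPM in PDX1 KO BFP, against 86.9 and 89.6 CPM in WT BFP. The 3 knockout libraries were close together and below both WT libraries. The fall was 0.67 ± 0.20 on the log2 scale (adjusted p = 0.0412), and it was not called when any 1 of the 5 libraries was left out. The remaining list leaned the other way. Of the 30 genes, 14 were higher without overlap and 4 lower, where 28.3% of all genes were higher without overlap and 27.9% lower, and the median over the list was 0.18, against 0.02 over all genes. HMGCS1, which makes HMG-CoA, was at 568, 496 and 527 CPM in PDX1 KO BFP, against 295 and 318 CPM in WT BFP. That is a log2 fold change of 0.79 ± 0.38 (adjusted p = 0.219). DHCR7, which completes cholesterol from its last precursor, was at 392, 405 and 372 CPM in PDX1 KO BFP, against 279 and 309 CPM in WT BFP (0.41 ± 0.21, adjusted p = 0.241). Both were above WT in every knockout library. With the 2 libraries that stand apart left out, 9 genes rose, HMGCS1 (0.77 ± 0.16, adjusted p = 0.00166), DHCR7 (0.39 ± 0.12, adjusted p = 0.0186), MVK, LSS, TM7SF2, SREBF1, SREBF2, ACACA and FASN, and 3 fell, EBP, ACSS2 and ELOVL6; 33.3% of all genes were then called. SQLE, MSMO1 and INSIG1 were in neither group.

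**Figure D3:**
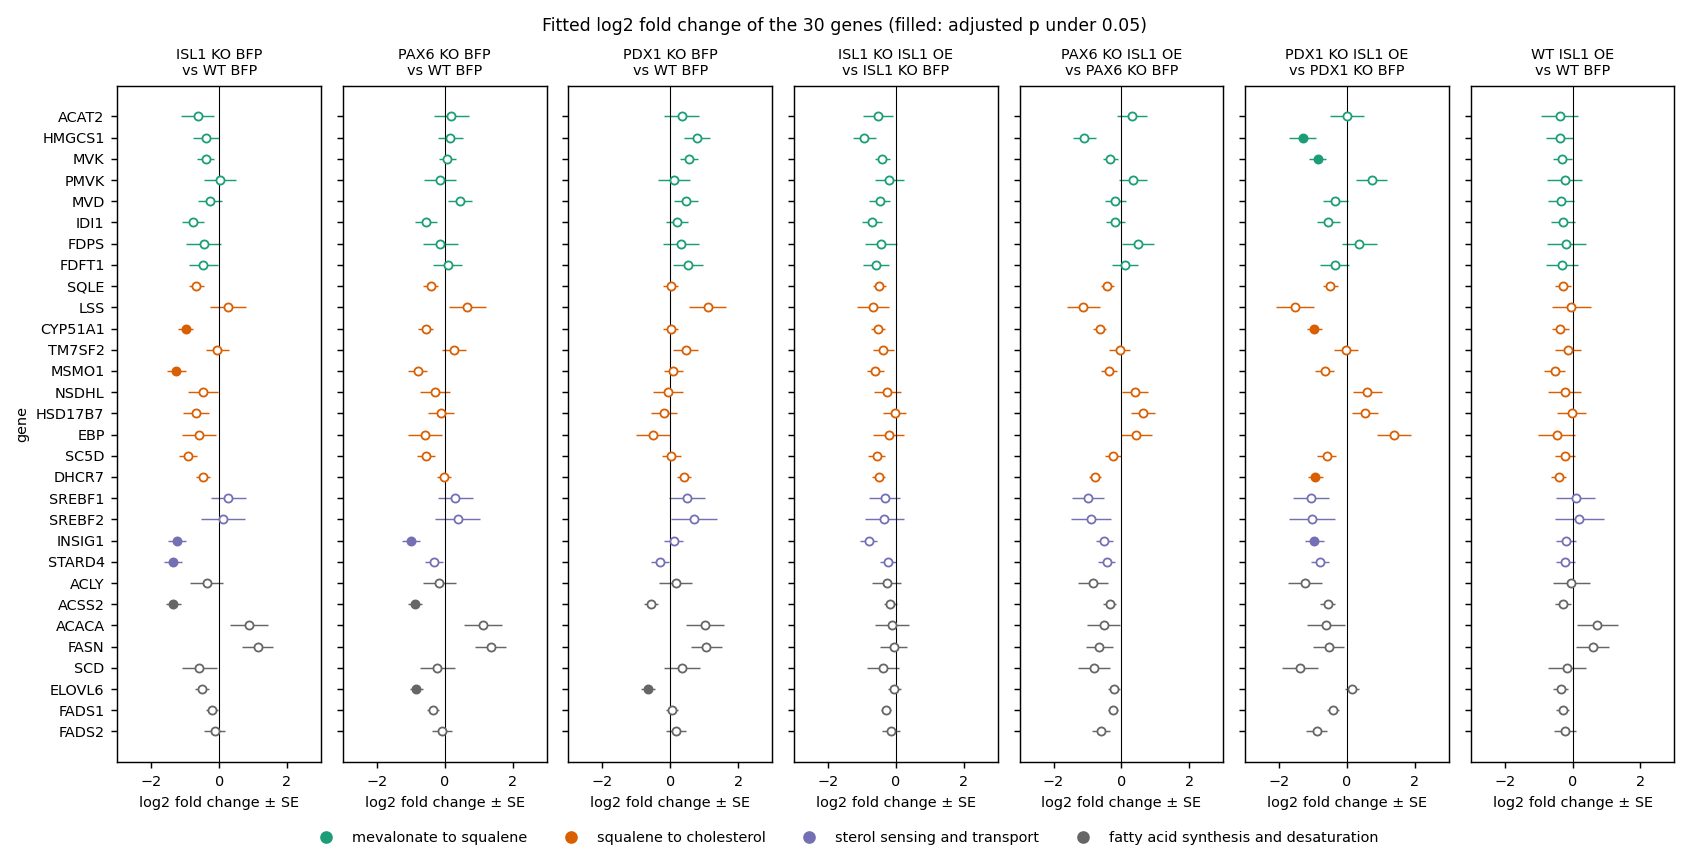
Log2 fold changes of the 30 genes, ordered by role, in knockout BFP libraries against WT BFP and in libraries labelled ISL1 OE against BFP of the same genotype; bars are SE and filled circles an adjusted p under 0.05. In ISL1 KO BFP the filled circles are CYP51A1 (-0.98), MSMO1 (-1.26), INSIG1 (-1.24), STARD4 (-1.37) and ACSS2 (-1.35), while HMGCS1 lies at 0.79 in PDX1 KO BFP, unfilled.

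FASN and ACACA, the cytosolic enzymes that make palmitate, had a pattern of their own. FASN was at 62, 60.6 and 61.6 CPM in ISL1 KO BFP, 62, 80.8 and 72.2 CPM in PAX6 KO BFP and 78, 27.8 and 70.0 CPM in PDX1 KO BFP, against 29.1 and 27 CPM in WT BFP. With the ISL1 vector it was at 54.5 and 30.3 CPM in WT. ACACA was at 106, 142 and 98.9 CPM in ISL1 KO BFP, 157, 129 and 123.7 CPM in PAX6 KO BFP and 162, 61.4 and 161 CPM in PDX1 KO BFP, against 62.1 and 63.5 CPM in WT BFP. In WT ISL1 OE it was at 148 and 59.6 CPM. For both genes, replicate 2 of PDX1 KO BFP and replicate 2 of WT ISL1 OE lay at the WT BFP level, while the other library of WT ISL1 OE lay near the knockouts. SREBF2 followed only in part. It was at 532, 328 and 562 CPM in PDX1 KO BFP, against 301 and 284 CPM in WT BFP, and at 400.4 and 271 CPM in WT ISL1 OE. In PAX6 KO BFP it was at 415, 340 and 392 CPM, all above WT BFP. In ISL1 KO BFP it was at 291, 333 and 325 CPM, and replicate 1 lay between the 2 WT BFP libraries. All 3 genes have long transcripts. The difference between long and short genes was below 0 in each of the libraries with low FASN and ACACA values. It was -0.281 in PDX1 KO BFP replicate 2, -0.106 in WT ISL1 OE replicate 2, and -0.079 and -0.172 in WT BFP replicates 1 and 3. It was also below 0 in BFP libraries with higher values: -0.137 in ISL1 KO BFP replicate 3, where FASN was at 61.6 CPM and ACACA at 98.9 CPM, -0.119 in ISL1 KO BFP replicate 1, where they were at 62 and 106 CPM, and -0.14 in PAX6 KO BFP replicate 3, where they were at 72.2 and 123.7 CPM. It was -0.055 in ISL1 KO ISL1 OE replicate 3, where FASN was at 60.6 CPM and ACACA at 97.7 CPM. The part of transcript length in the FASN and ACACA values was not tested.

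**Figure D4:**
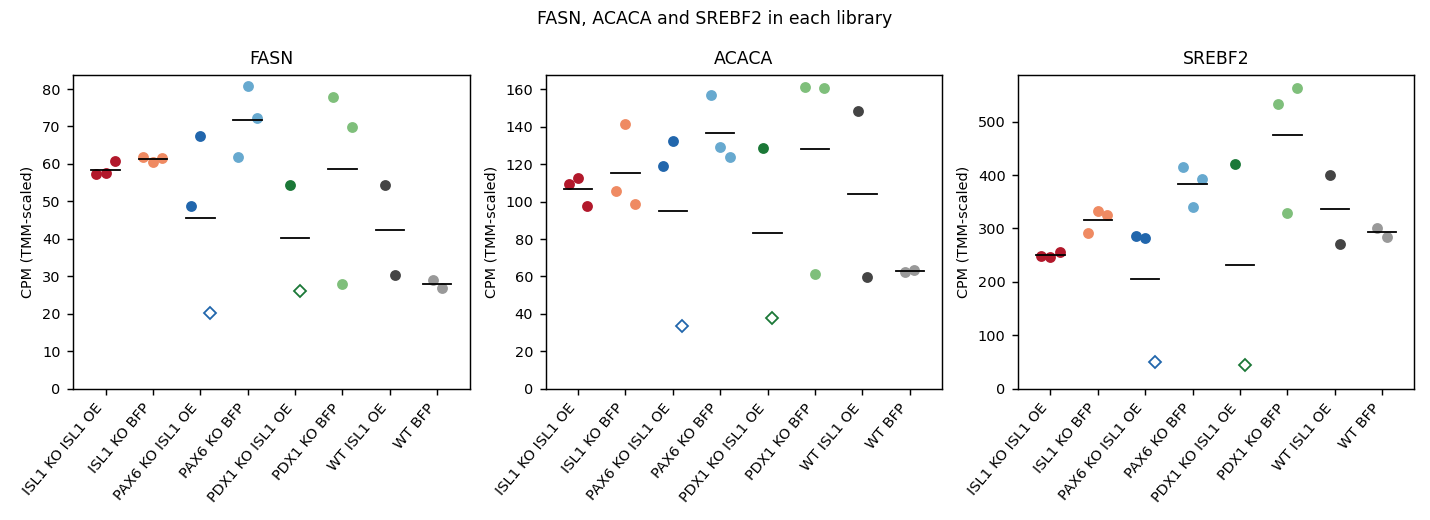
CPM of long-transcript genes of the list by library, grouped along the x axis, with bars at group means and open diamonds for the 2 libraries that stand apart. FASN lies at 29.1 and 27 CPM in WT BFP, and 1 of 3 PDX1 KO BFP libraries (27.8 CPM) and 1 of 2 WT ISL1 OE libraries (30.3 CPM) lie at the same level.

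Set against each other, the knockouts differed most between ISL1 KO and PDX1 KO. In ISL1 KO BFP, against PDX1 KO BFP, 8 of the 30 genes fell and none rose, where 5.71% of all genes were called, 2.39% lower and 3.32% higher. They were MVK, CYP51A1, MSMO1, SC5D, DHCR7, INSIG1, STARD4 and ACSS2. INSIG1, at 201, 166 and 180.4 CPM in ISL1 KO BFP, was at 455, 497 and 425 CPM in PDX1 KO BFP. MSMO1, at 219, 239 and 251 CPM in ISL1 KO BFP, was at 528, 650.2 and 625 CPM in PDX1 KO BFP. The libraries of the 2 knockouts were far apart for both genes. INSIG1 fell by 1.33 ± 0.25 (adjusted p = 0.00414) and MSMO1 by 1.35 ± 0.25 (adjusted p = 0.00422), and both calls held in all 14 alternatives.

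The other 6 calls of that comparison lay between -0.77 and -1.07 on the log2 scale. DHCR7 was at 204, 203 and 224 CPM in ISL1 KO BFP, against 392, 405 and 372 CPM in PDX1 KO BFP (-0.89 ± 0.18, adjusted p = 0.00817). SC5D was at 93.6, 111.5 and 108 CPM in ISL1 KO BFP, against 185, 223 and 198 CPM in PDX1 KO BFP (-0.95 ± 0.25, adjusted p = 0.0318). MVK was at 23.5, 18.6 and 24.7 CPM in ISL1 KO BFP, against 42.3, 46.5 and 39.7 CPM in PDX1 KO BFP (-0.94 ± 0.23, adjusted p = 0.0199). None of these groups overlapped, and over the list 23 of 30 genes were lower in ISL1 KO without overlap, where 21.5% of all genes were, and none was higher, where 20.2% of all genes were. CYP51A1 was at 477, 560.2 and 524 CPM in PDX1 KO BFP, STARD4 at 103, 110.5 and 111.96 CPM and ACSS2 at 52.6, 51.4 and 48.6 CPM, each above all 3 ISL1 KO BFP libraries (adjusted p = 0.00759, 0.0131 and 0.0232). Leaving out the 2 libraries that stand apart, 24 of the 30 fell and none rose, where 12.6% of all genes were called lower; the exceptions were PMVK, EBP, SREBF1, ACACA, FASN and ELOVL6. The count of 8 became 3 without ISL1 KO BFP replicate 1, where 2.39% of all genes were called, against 5.71% with all libraries. It was 4 without PDX1 KO BFP replicate 3 and 6 without ISL1 KO BFP replicate 3. It was 5 without ISL1 KO BFP replicate 2 or PDX1 KO BFP replicate 1 or 2. For these other settings the share of all genes called is not given, so their counts cannot be read alone. SC5D and ACSS2 were lost with any of the 6 libraries left out (adjusted p of 0.059 to 0.146 and 0.0645 to 0.0947), MVK with any but ISL1 KO BFP replicate 3 (0.0515 to 0.104), STARD4 without ISL1 KO BFP replicate 1 (0.0792) or PDX1 KO BFP replicate 3 (0.0544), and CYP51A1 without ISL1 KO BFP replicate 1 (0.0528).

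STARD4 was the 1 gene of the 30 called in ISL1 KO BFP against PAX6 KO BFP, where 2.78% of all genes were, 1.79% lower. It was at 46.4, 58 and 50.9 CPM in ISL1 KO BFP, against 128, 74.6 and 118.2 CPM in PAX6 KO BFP, and fell by 1.04 ± 0.24 (adjusted p = 0.0226); the call was lost without ISL1 KO BFP replicate 1 (adjusted p = 0.127) and without ISL1 KO BFP replicate 3 or PAX6 KO BFP replicate 1 or 3. INSIG1 was the 1 gene called in PAX6 KO BFP against PDX1 KO BFP, where 3.62% of all genes were, 1.91% lower and 1.7% higher. It was at 285, 145 and 221 CPM in PAX6 KO BFP, against 455, 497 and 425 CPM in PDX1 KO BFP, and fell by 1.08 ± 0.24 (adjusted p = 0.019). Without PAX6 KO BFP replicate 2, its lowest library, the adjusted p was 0.138, and the call was also lost without PAX6 KO BFP replicate 3 or PDX1 KO BFP replicate 1 or 2. With the 2 libraries that stand apart left out, 8 genes were called, all lower, in ISL1 KO BFP against PAX6 KO BFP, and 11, all lower, in PAX6 KO BFP against PDX1 KO BFP, where 10.7% and 20.1% of all genes were called.

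**Figure D5:**
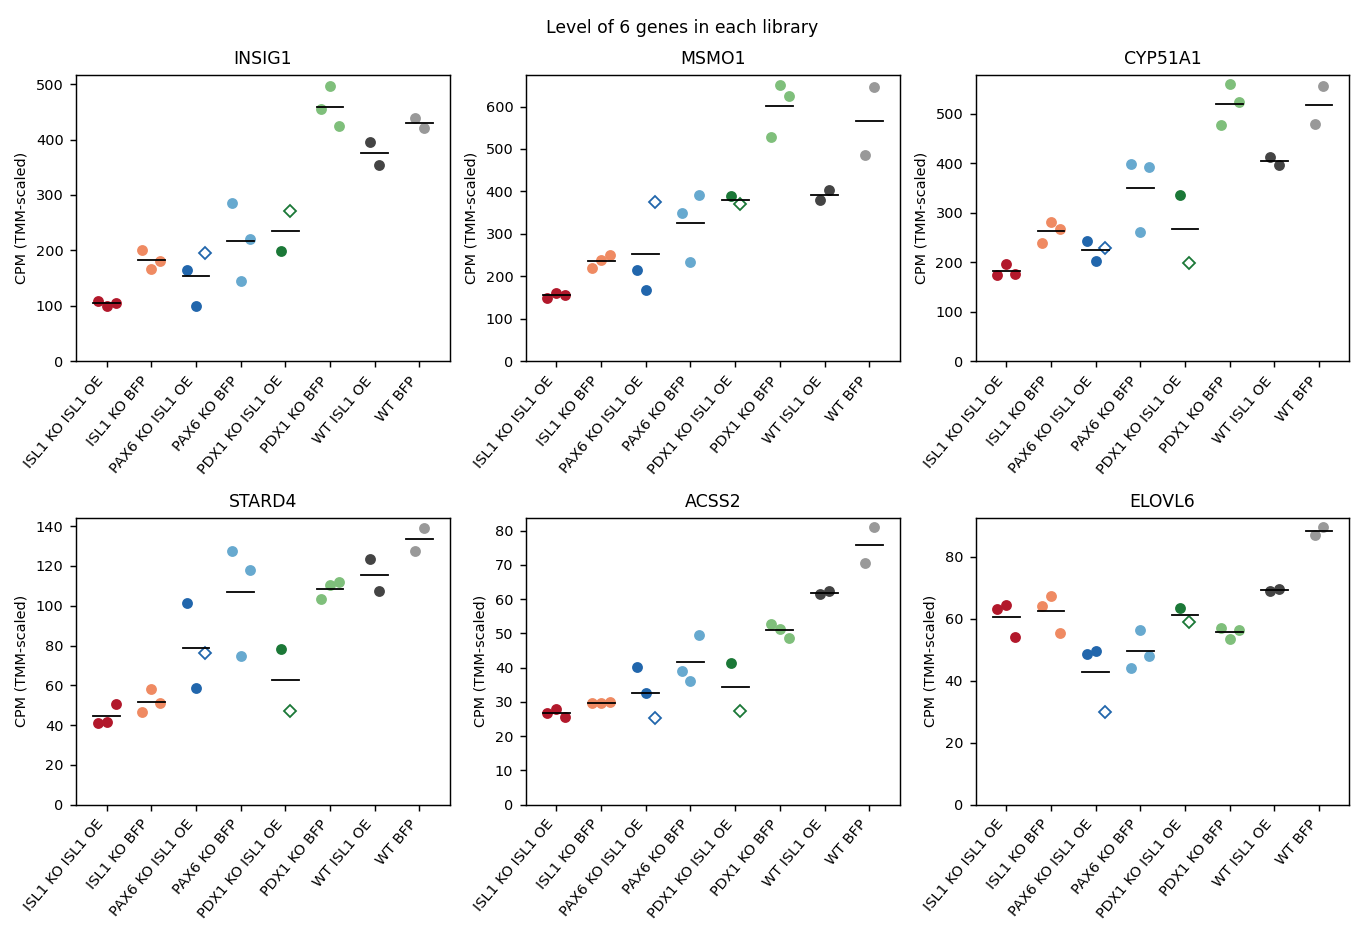
CPM of 6 genes of the list in every library, by group along the x axis, with bars at group means and open diamonds for the 2 libraries that stand apart. INSIG1 lies at 99 to 108 CPM in ISL1 KO ISL1 OE, 166 to 201 CPM in ISL1 KO BFP, 425 to 497 CPM in PDX1 KO BFP and 421 to 439 CPM in WT BFP.

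The vector comparison asks whether the ISL1 construct moved these genes within a genotype, and its direction rests on the labels, since ISL1 RNA does not show the construct. In ISL1 KO labelled ISL1 OE, against ISL1 KO BFP, all 30 log2 fold changes were below 0, with a median of -0.37 against -0.01 over all genes, but none was called. Only 0.424% of all genes were called; 8 of the 30 had an unadjusted p under 0.05, against 1758 of 22184 genes. INSIG1 was at 108, 99 and 106 CPM in ISL1 KO ISL1 OE, against 201, 166 and 180.4 CPM in ISL1 KO BFP. HMGCS1 was at 138, 126.4 and 105 CPM in ISL1 KO ISL1 OE, against 219, 266 and 217 CPM in ISL1 KO BFP. DHCR7 was at 139, 154 and 150.4 CPM in ISL1 KO ISL1 OE, against 204, 203 and 224 CPM in ISL1 KO BFP. In each of the 3 genes the highest ISL1 OE library was below the lowest BFP library, as in 23 of the 30, where 15.3% of all genes were lower without overlap. The log2 fold changes were -0.80 ± 0.24 for INSIG1 (adjusted p = 0.22), -0.93 ± 0.34 for HMGCS1 (adjusted p = 0.362) and -0.51 ± 0.18 for DHCR7 (adjusted p = 0.353). Without the 2 libraries that stand apart, which belong to other genotypes, 9 of the 30 fell, HMGCS1, IDI1, LSS, CYP51A1, MSMO1, SC5D, DHCR7, INSIG1 and FADS1, where 5.92% of all genes were called. DESeq2 called none of the 30 with all libraries, where it called 1.79% of all genes.

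In PAX6 KO labelled ISL1 OE, against PAX6 KO BFP, none of the 30 was called, where 0.415% of all genes were; 7 had an unadjusted p under 0.05, against 2379 of all genes, and DESeq2 called 1. DHCR7 was at 165, 169.6 and 176 CPM in PAX6 KO ISL1 OE, against 292, 239 and 343 CPM in PAX6 KO BFP (-0.78 ± 0.18, adjusted p = 0.0938). HMGCS1 was at 201, 189 and 92.8 CPM in PAX6 KO ISL1 OE, against 423, 271 and 338 CPM in PAX6 KO BFP (-1.10 ± 0.34, adjusted p = 0.21). CYP51A1 was at 243, 202 and 229.7 CPM in PAX6 KO ISL1 OE, against 398, 261 and 393 CPM in PAX6 KO BFP (-0.64 ± 0.20, adjusted p = 0.22). The groups did not overlap for any of these, as for 9 of the 30 that were lower and none that was higher, where 10.2% and 6.94% of all genes were. DHCR7 was even across the 3 ISL1 OE libraries, replicate 3 included. For other genes replicate 3 lay above the BFP libraries: ACAT2 was at 140.2, 110.7 and 528 CPM in PAX6 KO ISL1 OE, against 213, 159 and 258 CPM in PAX6 KO BFP. With all libraries 23 of the 30 log2 fold changes were below 0, with a median of -0.36. Without those 2 libraries all 30 were below 0, with a median of -0.57, and 15 fell, where 6.02% of all genes were called: 6 from mevalonate to squalene, 7 from squalene to cholesterol, and FADS1 and FADS2.

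In PDX1 KO labelled ISL1 OE, against PDX1 KO BFP, 5 of the 30 fell, HMGCS1, MVK, CYP51A1, DHCR7 and INSIG1, and none rose, where 14.4% of all genes were called, 5.34% lower and 9.09% higher. The groups did not overlap for 18 genes that were lower and 1 that was higher, where 18.6% and 16.8% of all genes were. The group has 2 libraries, of which 1 stands apart. DHCR7 was at 259 and 150.3 CPM in PDX1 KO ISL1 OE, against 392, 405 and 372 CPM in PDX1 KO BFP (-0.93 ± 0.21, adjusted p = 0.00942). INSIG1 was at 199 and 271 CPM in PDX1 KO ISL1 OE, against 455, 497 and 425 CPM in PDX1 KO BFP (-0.97 ± 0.28, adjusted p = 0.0304). CYP51A1 was at 337 and 198 CPM in PDX1 KO ISL1 OE, against 477, 560.2 and 524 CPM in PDX1 KO BFP (-0.96 ± 0.23, adjusted p = 0.0127). All 3 genes were below PDX1 KO BFP in both libraries. HMGCS1 was at 329 and 100.04 CPM in PDX1 KO ISL1 OE, against 568, 496 and 527 CPM in PDX1 KO BFP (-1.30 ± 0.39, adjusted p = 0.0358). MVK was at 25.1 and 21.8 CPM in PDX1 KO ISL1 OE, against 42.3, 46.5 and 39.7 CPM in PDX1 KO BFP (-0.87 ± 0.26, adjusted p = 0.0343). They too were lower in both libraries, HMGCS1 by far the more so in replicate 4.

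The count of that comparison rested on which of the 2 libraries was kept. It was 0 without replicate 4, where 3.1% of all genes were called, and 16 without replicate 2, where 46.8% were. It was 2 without any 1 of the PDX1 KO BFP libraries, where 5.77% to 8.26% of all genes were called and CYP51A1 and DHCR7 were the pair still called. INSIG1 was lost with any of the 5 libraries left out (adjusted p of 0.0623 to 0.114). Without replicate 4 the adjusted p was 0.214 for CYP51A1, 0.153 for DHCR7, 0.286 for MVK and 0.416 for HMGCS1. When both libraries that stand apart were left out, replicate 2 alone stood for the group and was assumed to vary like the others. Then 9 genes fell, where 11.2% of all genes were called: ACAT2, IDI1, FDPS, LSS, SC5D, DHCR7, INSIG1, FADS1 and FADS2, of which DHCR7 and INSIG1 were also called with all libraries. EBP shows the split: it was at 77.3 CPM in replicate 2 and 398 CPM in replicate 4, against 89.8, 100.4 and 81.7 CPM in PDX1 KO BFP.

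In WT labelled ISL1 OE, against WT BFP, none of the 30 was called, by any of the alternatives tried, where 0.0361% of all genes were called, and none had an unadjusted p under 0.05. The 3 with the smallest unadjusted p were DHCR7, MSMO1 and ELOVL6. DHCR7 was at 224 and 219 CPM in WT ISL1 OE, against 279 and 309 CPM in WT BFP. MSMO1 was at 381 and 402 CPM in WT ISL1 OE, against 485 and 647 CPM in WT BFP. ELOVL6 was at 69.1 and 69.5 CPM in WT ISL1 OE, against 86.9 and 89.6 CPM in WT BFP. All were lower in both ISL1 OE libraries, by -0.41 ± 0.23, -0.53 ± 0.30 and -0.35 ± 0.22 on the log2 scale (adjusted p = 1 for each). Over the list 26 of 30 were below 0, with a median of -0.23, against -0.02 over all genes, and 19 were lower and 1 higher without overlap, where 24.1% and 19.6% of all genes were.

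No gene of the 30 had a vector effect that was called different between a knockout and WT, where 0.00451% of all genes were called for ISL1 KO, 0% for PAX6 KO and 1.37% for PDX1 KO. At an unadjusted p under 0.05 there was none of the 30 for ISL1 KO and PAX6 KO and 1 for PDX1 KO, and DESeq2 also called none. It called 0.104% of all genes for ISL1 KO, 0.0451% for PAX6 KO and 5.46% for PDX1 KO. The 3 genes with the smallest unadjusted p were INSIG1, ACACA and ELOVL6 for ISL1 KO, FASN, ACACA and SREBF1 for PAX6 KO, and EBP, INSIG1 and LSS for PDX1 KO. For INSIG1 the difference from the WT effect was -0.61 ± 0.38 in ISL1 KO (adjusted p = 1), -0.30 ± 0.38 in PAX6 KO (adjusted p = 0.889) and -0.77 ± 0.40 in PDX1 KO (adjusted p = 0.344). In ISL1 KO it was -0.84 ± 0.78 for ACACA and 0.31 ± 0.29 for ELOVL6 (adjusted p = 1 for each). In PAX6 KO it was -1.25 ± 0.63 for FASN, -1.25 ± 0.78 for ACACA and -1.08 ± 0.73 for SREBF1 (adjusted p = 0.889 for each). In PDX1 KO it was 1.86 ± 0.74 for EBP (adjusted p = 0.22) and -1.49 ± 0.79 for LSS (adjusted p = 0.347). The EBP difference was 0.25 ± 0.19 (adjusted p = 0.567) without the 2 libraries that stand apart. Without PDX1 KO ISL1 OE replicate 2, with replicate 4 alone standing for its group, 12 were called for PDX1 KO, where 35.7% of all genes were called. The lower levels under the vector are thus not shown to differ between genotypes.

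Among libraries labelled ISL1 OE, the knockouts were again compared with WT. In ISL1 KO ISL1 OE, against WT ISL1 OE, 8 of the 30 fell and none rose, where 4.13% of all genes were called, 2.93% lower and 1.2% higher. CYP51A1, MSMO1, INSIG1, STARD4 and ACSS2 were among them, as under BFP, and IDI1, SQLE and SC5D joined them. The 2 comparisons have no library in common. They share their genotypes and 1 model with its estimate of spread, so they are not independent repeats. INSIG1 was at 108, 99 and 106 CPM in ISL1 KO ISL1 OE, against 396 and 354 CPM in WT ISL1 OE, and fell by 1.85 ± 0.27 (adjusted p = 0.00106). ACSS2 was at 26.8, 27.8 and 25.5 CPM in ISL1 KO ISL1 OE, against 61.5 and 62.3 CPM in WT ISL1 OE, and fell by 1.21 ± 0.21 (adjusted p = 0.00334). Both calls held in all 13 alternatives, and in both genes the groups lay far apart.

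The other calls were alike in size. STARD4 was at 40.8, 41.8 and 50.7 CPM in ISL1 KO ISL1 OE, against 123.7 and 107 CPM in WT ISL1 OE (-1.38 ± 0.26, adjusted p = 0.0065). MSMO1 was at 148, 162 and 157 CPM in ISL1 KO ISL1 OE, against 381 and 402 CPM in WT ISL1 OE (-1.33 ± 0.27, adjusted p = 0.0102). CYP51A1 was at 175, 196 and 177 CPM in ISL1 KO ISL1 OE, against 412 and 396 CPM in WT ISL1 OE (-1.15 ± 0.22, adjusted p = 0.00685). Knockout and WT libraries did not overlap for any of them. SC5D was at 65.4, 72 and 75.3 CPM in ISL1 KO ISL1 OE, against 173 and 166 CPM in WT ISL1 OE (-1.25 ± 0.27, adjusted p = 0.015). IDI1, which isomerises isopentenyl diphosphate, was at 208, 240.1 and 219.6 CPM in ISL1 KO ISL1 OE, against 503 and 507 CPM in WT ISL1 OE (-1.18 ± 0.32, adjusted p = 0.0472). SQLE was at 129, 133 and 153 CPM in ISL1 KO ISL1 OE, against 259.5 and 248 CPM in WT ISL1 OE (-0.87 ± 0.22, adjusted p = 0.0293). The 8 calls became 5 without any 1 of the ISL1 KO ISL1 OE libraries, where 1.76% to 1.97% of all genes were called, against 4.13% with all libraries. Fewer were called without either WT ISL1 OE library, which left only the other for WT. IDI1, SQLE and SC5D were lost with any of the 5 libraries left out (adjusted p of 0.11 to 0.246, 0.0643 to 0.204 and 0.0503 to 0.115). MSMO1 was lost without WT ISL1 OE replicate 1 (0.0695) or 2 (0.101), and CYP51A1 and STARD4 without WT ISL1 OE replicate 1 (0.0758 and 0.0867). Without the 2 libraries that stand apart 18 genes fell, where 23.7% of all genes were called.

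In PAX6 KO ISL1 OE, against WT ISL1 OE, CYP51A1, INSIG1 and ACSS2 fell and none of the 30 rose, where 4.26% of all genes were called, 2.88% lower and 1.38% higher. INSIG1 was at 164, 100.3 and 196 CPM in PAX6 KO ISL1 OE, against 396 and 354 CPM in WT ISL1 OE (-1.29 ± 0.27, adjusted p = 0.0102). ACSS2 was at 40.1, 32.7 and 25.4 CPM in PAX6 KO ISL1 OE, against 61.5 and 62.3 CPM in WT ISL1 OE (-0.92 ± 0.21, adjusted p = 0.018). CYP51A1 was at 243, 202 and 229.7 CPM in PAX6 KO ISL1 OE, against 412 and 396 CPM in WT ISL1 OE (-0.85 ± 0.22, adjusted p = 0.038). All 3 PAX6 KO libraries were below both WT libraries in each gene. CYP51A1 was lost with any of the 5 libraries left out (adjusted p of 0.0593 to 0.24). INSIG1 was lost without WT ISL1 OE replicate 1 (0.111) or 2 (0.0811), and so was ACSS2 (0.135 and 0.143). The count was 2 without PAX6 KO ISL1 OE replicate 1, 3 without replicate 2 and 5 without replicate 3, where 3.74%, 4.82% and 3.35% of all genes were called. It was 0 without either WT ISL1 OE library, where 0.933% and 1.06% were. With both libraries that stand apart left out it was 12, all lower, where 14.5% of all genes were called. In PDX1 KO ISL1 OE, against WT ISL1 OE, none of the 30 was called, where 0.78% of all genes were; 5 had an unadjusted p under 0.05, and DESeq2 called 1. ACSS2, at 41.2 and 27.4 CPM in PDX1 KO ISL1 OE, was at 61.5 and 62.3 CPM in WT ISL1 OE (-0.85 ± 0.23, adjusted p = 0.115). STARD4 was at 78.4 and 46.9 CPM in PDX1 KO ISL1 OE, against 123.7 and 107 CPM in WT ISL1 OE (-0.88 ± 0.29, adjusted p = 0.206). CYP51A1, at 337 and 198 CPM in PDX1 KO ISL1 OE, was at 412 and 396 CPM in WT ISL1 OE (-0.60 ± 0.25, adjusted p = 0.274). Without PDX1 KO ISL1 OE replicate 2 the count was 14, where 37.5% of all genes were called, and without both libraries that stand apart it was 1, ACSS2, where 7.9% were.

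With all libraries 18 of the 30 genes were called in none of these comparisons. FASN, ACACA and SREBF2 are described above, and the levels of the others in the BFP groups follow. Among the first steps, ACAT2 was at 116.9, 108 and 129 CPM in ISL1 KO BFP, 213, 159 and 258 CPM in PAX6 KO BFP and 218, 260.5 and 212 CPM in PDX1 KO BFP, against 166 and 199.8 CPM in WT BFP. FDFT1, which commits farnesyl diphosphate to sterols, was at 252, 243 and 317 CPM in ISL1 KO BFP, 413, 284 and 501 CPM in PAX6 KO BFP and 492, 601 and 519 CPM in PDX1 KO BFP, against 317 and 434 CPM in WT BFP. Both were lowest in ISL1 KO and highest in PDX1 KO by group mean among the BFP groups, although ISL1 KO and WT libraries met for FDFT1. LSS, which closes the sterol rings to lanosterol, was at 357, 374 and 425 CPM in ISL1 KO BFP, 567, 439 and 533 CPM in PAX6 KO BFP and 739.5, 601 and 743 CPM in PDX1 KO BFP, against 311 and 335 CPM in WT BFP. All 9 knockout libraries lay above WT for LSS. EBP, a sterol isomerase, did the reverse, at 93.5, 82.5 and 80.1 CPM in ISL1 KO BFP, 79.3, 80.8 and 97.1 CPM in PAX6 KO BFP and 89.8, 100.4 and 81.7 CPM in PDX1 KO BFP, against 123 and 134 CPM in WT BFP. Neither was called with all libraries (adjusted p = 0.225 for LSS in PDX1 KO BFP against WT BFP). SCD was at 1013, 1274 and 1012 CPM in ISL1 KO BFP, 1646, 1219 and 1374 CPM in PAX6 KO BFP and 2168, 1786 and 2321 CPM in PDX1 KO BFP, against 1575 and 1729 CPM in WT BFP. ACLY, which makes cytosolic acetyl-CoA from citrate, was at 332, 414 and 383 CPM in ISL1 KO BFP, 476, 355 and 474 CPM in PAX6 KO BFP and 571, 488 and 565 CPM in PDX1 KO BFP, against 445 and 525 CPM in WT BFP. The ISL1 KO libraries lay below both WT libraries for both genes, and PDX1 KO above both for SCD.

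The others of the 18 follow. PMVK, a mevalonate pathway kinase, was at 55.5, 51 and 61.6 CPM in ISL1 KO BFP, 49.6, 43.4 and 57.4 CPM in PAX6 KO BFP and 59.2, 65 and 54.5 CPM in PDX1 KO BFP, against 53.7 and 56.1 CPM in WT BFP, and every knockout overlapped WT. MVD, which makes isopentenyl diphosphate, was at 123.45, 108 and 140.4 CPM in ISL1 KO BFP, 203, 157 and 250.2 CPM in PAX6 KO BFP and 203, 212 and 197 CPM in PDX1 KO BFP, against 139 and 158 CPM in WT BFP. FDPS was at 173, 157 and 204 CPM in ISL1 KO BFP, 224, 172 and 276 CPM in PAX6 KO BFP and 299, 326 and 288 CPM in PDX1 KO BFP, against 213 and 275 CPM in WT BFP. PDX1 KO lay above both WT libraries for MVD and FDPS, and ISL1 KO below both for FDPS. TM7SF2 was at 200.1, 183 and 246 CPM in ISL1 KO BFP, 263, 207 and 319 CPM in PAX6 KO BFP and 300.3, 313 and 276 CPM in PDX1 KO BFP, against 196 and 238 CPM in WT BFP. NSDHL, a sterol dehydrogenase, was at 56.7, 52.6 and 59.6 CPM in ISL1 KO BFP, 61.7, 53.3 and 78.5 CPM in PAX6 KO BFP and 72.7, 80.7 and 70.5 CPM in PDX1 KO BFP, against 72.1 and 85.3 CPM in WT BFP. HSD17B7, a sterol ketone reductase, was at 29.7, 28.2 and 33.8 CPM in ISL1 KO BFP, 45.4, 37.1 and 54.2 CPM in PAX6 KO BFP and 41, 45.6 and 44.7 CPM in PDX1 KO BFP, against 43 and 56 CPM in WT BFP. Of these 3 genes, NSDHL and HSD17B7 were below both WT libraries in ISL1 KO, and TM7SF2 was above both in PDX1 KO. SREBF1 was at 199, 195 and 216 CPM in ISL1 KO BFP, 230.1, 193 and 207 CPM in PAX6 KO BFP and 278, 202 and 234 CPM in PDX1 KO BFP, against 192 and 146 CPM in WT BFP. FADS1 was at 303, 293 and 304 CPM in ISL1 KO BFP, 274, 252 and 301 CPM in PAX6 KO BFP and 346, 381 and 348 CPM in PDX1 KO BFP, against 334 and 362 CPM in WT BFP. FADS2 was at 658, 631 and 645 CPM in ISL1 KO BFP, 667, 650.2 and 708 CPM in PAX6 KO BFP and 810.3, 776 and 791 CPM in PDX1 KO BFP, against 690.4 and 728 CPM in WT BFP. All 9 knockout libraries lay above WT for SREBF1, and the ISL1 KO libraries lay below WT for both desaturases.

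The genes differed in how closely they varied with one another. Each gene's log2 CPM was taken as its deviation from the mean of its group, so differences between groups were removed. Over the 19 libraries other than the 2 that stand apart, these deviations were correlated between genes. The median correlation of a gene with the other 29 was 0.766 for SQLE, 0.762 for FDFT1, 0.752 for HSD17B7 and 0.749 for ACAT2. It was 0.056 for SREBF2, 0 for SREBF1, -0.12 for ACACA, -0.229 for FASN and -0.516 for ELOVL6. The lowest sterol enzymes lay in the middle of the scale, with 0.241 for HMGCS1, 0.297 for EBP, 0.417 for LSS and 0.473 for PMVK, and FADS1 lay at 0.692. The values describe variation between libraries of the same group, in this set alone. PDX1 KO ISL1 OE replicate 2 was alone in its group, so it had no deviation and added nothing to these correlations. Within groups of the same 19 libraries, FADS2 and FADS1 had the smallest SD on the log2 scale, 0.045 and 0.071, and ACACA and FASN the largest, 0.468 and 0.414; the median of all genes was 0.255. With all 21 libraries the SD was smallest for FADS1 (0.14) and DHCR7 (0.194) and largest for SREBF2 (0.888), with 0.341 for FADS2, 0.702 for ACACA, 0.552 for FASN and a median of all genes of 0.478. FADS1 and FADS2 overlap on opposite strands over 29694 bases, and unstranded reads there cannot be assigned by strand.

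Around the 30 genes, 8 further lists of lipid genes were counted. In ISL1 KO BFP against WT BFP, where 6.53% of all genes were called, 2 of 9 other SREBP targets fell, ME1, which makes NADPH for lipid synthesis, and ELOVL5, an elongase. In the same comparison 2 of 9 genes of intracellular sterol transport fell, SCARB1, a lipoprotein receptor, and LIPA, the lysosomal acid lipase, as did 2 of 11 of elongation and activation, HSD17B12 and ELOVL2, and 1 of 6 of SREBP processing, RNF139. None was called of 7 sterol efflux genes, 8 of isoprenoid branches, 8 of triglycerides and droplets and 10 of oxidation and ketogenesis. ME1 was at 23.1, 24.5 and 22 CPM in ISL1 KO BFP, against 46.5 and 51.9 CPM in WT BFP (-1.08 ± 0.17, adjusted p = 0.00103). The groups lay far apart, and ME1 fell in PAX6 KO BFP too (-0.64 ± 0.17, adjusted p = 0.0337).

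Triglyceride and droplet genes were the list with most calls in PAX6 KO BFP and PDX1 KO BFP against WT BFP. In PAX6 KO BFP 4 of 8 fell, where 6.65% of all genes were called, with a list median of -1.06, against 0.00 over all genes. In PDX1 KO BFP 3 fell and 1 rose, where 11.4% of all genes were called, with a median of -0.87, against 0.02 over all genes. DGAT2, which adds the last acyl chain of triglycerides, was at 6.96, 10.8 and 9.96 CPM in PAX6 KO BFP and 8.29, 5.88 and 6.38 CPM in PDX1 KO BFP, against 25.1 and 29.9 CPM in WT BFP. PLIN2, a droplet coat protein, was at 108, 124.9 and 99.9 CPM in PAX6 KO BFP and 80.8, 81.8 and 77.5 CPM in PDX1 KO BFP, against 261 and 259.9 CPM in WT BFP. Both fell in both knockouts. The log2 fold changes of DGAT2 were -1.57 ± 0.34 in PAX6 KO (adjusted p = 0.0111) and -2.005 ± 0.34 in PDX1 KO (adjusted p = 0.0015), and those of PLIN2 were -1.23 ± 0.28 in PAX6 KO (adjusted p = 0.0157) and -1.70 ± 0.28 in PDX1 KO (adjusted p = 0.00132). PLIN3 fell in PAX6 KO BFP (adjusted p = 0.00324), and PNPLA2, a triglyceride lipase, rose in PDX1 KO BFP (1.05 ± 0.22, adjusted p = 0.00617). ACSL1, which activates long-chain fatty acids, was at 821, 512 and 765 CPM in PAX6 KO BFP, against 106 and 114.8 CPM in WT BFP, and rose by 2.67 ± 0.59 (adjusted p = 0.0131). SOAT1, which esterifies cholesterol, was at 262, 334 and 286 CPM in PDX1 KO BFP, against 154 and 155 CPM in WT BFP, and rose by 0.93 ± 0.20 (adjusted p = 0.00725). These knockouts share their WT libraries.

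With the vector, as labelled, 1 of the 8 lists held a call in PAX6 KO and none in ISL1 KO or WT, while 6 lists held calls in PDX1 KO. Of all genes 0.415% were called in PAX6 KO and 14.4% in PDX1 KO. MYLIP, a ligase that targets lipoprotein receptors for degradation and is induced by LXR, was at 106, 55.6 and 155 CPM in PAX6 KO ISL1 OE, against 43.3, 41.1 and 36.7 CPM in PAX6 KO BFP (1.39 ± 0.26, adjusted p = 0.0255). It was at 66.1 and 70.6 CPM in PDX1 KO ISL1 OE, against 28.4, 30.8 and 32.6 CPM in PDX1 KO BFP (1.16 ± 0.28, adjusted p = 0.0129). In ISL1 KO it was at 75.4, 64.3 and 55.9 CPM under ISL1 OE, against 48.4, 38.5 and 43 CPM under BFP, and in WT at 52 and 55.2 CPM under ISL1 OE, against 38.8 and 38.4 CPM under BFP, called in neither. No ISL1 OE library overlapped the BFP libraries of its genotype.

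Marker sums of other cell types moved with some of these groups. Proliferation markers (5 genes) summed to 467 to 585 CPM in ISL1 KO ISL1 OE, 314 to 446 CPM in ISL1 KO BFP and 119.5 to 145 CPM in PDX1 KO BFP, against 202 to 300.4 CPM in WT BFP. General endocrine markers (7 genes) summed to 13540.0 to 19920.0 CPM in ISL1 KO ISL1 OE, 24240.0 to 33240.0 CPM in ISL1 KO BFP and 44170.0 to 47500.0 CPM in PDX1 KO BFP, against 19930.0 to 24330.0 CPM in WT BFP. By group mean the proliferation sum was highest in ISL1 KO ISL1 OE, where the summed lipid genes were lowest, and the endocrine sum highest in PDX1 KO BFP, where they were highest. Other groups did not keep this order in the endocrine sum. ISL1 KO BFP had a higher mean endocrine sum than WT BFP but lower summed lipid genes, and PAX6 KO ISL1 OE had endocrine sums of 10850, 10810 and 24090 CPM. Liver-like markers (8 genes) summed to 6281 to 8893 CPM in ISL1 KO BFP, 4845 to 6717 CPM in PAX6 KO BFP and 3595 to 4149 CPM in PDX1 KO BFP, against 14380.0 and 16390.0 CPM in WT BFP. Liver cells also use this pathway heavily. Alpha markers (5 genes) summed to 595 to 634 CPM in ISL1 KO BFP, 977 to 1582 CPM in PAX6 KO BFP and 15230.0 to 19440.0 CPM in PDX1 KO BFP, against 37690.0 and 51590.0 CPM in WT BFP. Beta markers (6 genes) summed to 3623 to 5019 CPM in ISL1 KO BFP, 1402 to 2015 CPM in PAX6 KO BFP and 674 to 836 CPM in PDX1 KO BFP, against 13770.0 and 11030.0 CPM in WT BFP. Both sums were lower in every knockout library than in WT. Enterochromaffin-like markers (4 genes) ran the other way, at 1773 to 2427 CPM in ISL1 KO BFP, 1074 to 1756 CPM in PAX6 KO BFP and 2780.0 to 3269 CPM in PDX1 KO BFP, against 699 and 818 CPM in WT BFP. Mesenchyme markers (6 genes) ran from 77.3 to 1612 CPM and adipocyte markers (4 genes) from 0.0 to 0.537 CPM over the 21 libraries, so that adipocyte genes were at or near 0. In PDX1 KO ISL1 OE, beta markers summed to 582 CPM in replicate 2 and 45100.0 CPM in replicate 4, and alpha markers to 13230.0 and 107300.0 CPM. The part of cell make-up in the lipid gene results was not tested.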

How the data were processed

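RNA was made into libraries with SMART-Seq v4 and KAPA EvoPrep, per the labels' protocols, a method without strand information or molecular identifiers. Reads were aligned with STAR to GRCh38, per the submitters' processing notes; the counting tool and annotation were not stated. The authors deposited estimated counts per gene and lane, and TPM values per gene and per transcript; these were used as deposited, and 4 lanes per library were summed for counts and averaged for TPM. The 84 columns used came from 21 libraries, and 12 columns of 3 libraries that match no labelled sample were not used; 1 repeated column, identical to its copy, was used once. Group came from the labels and replicate number from the column names. Identifiers were matched to symbols in GENCODE 29 (34390) or a table of gene names (4202).

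Summed estimated counts were rounded and fitted with edgeR 4.0.16 in R 4.3.3 (filterByExpr, TMM, quasi-likelihood F test) as 8 group means in 1 model, with Benjamini-Hochberg adjustment over 22184 genes and calls at an adjusted p under 0.05, in 16 comparisons. Alternatives were DESeq2 1.42.0, library size alone, RLE factors, no filter, the compared groups alone, a replicate block, each library left out, and both libraries that stand apart left out; the lane set as a term was chosen after the column names were seen. In PAX6 KO, same-numbered libraries of both vectors deviated together (correlations 0.176, 0.382 and 0.346), and the block left its count of calls at 0. Scripts were tested on simulated data.

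The 30 genes and all lists were chosen with earlier results of these data known. All 30 are named with their level; in each comparison the genes given by library are those called, up to 10, or with none called the 3 with the smallest unadjusted p, and of each other list up to 3 called genes are named. LSS, EBP, ACAT2, FDFT1, SCD, ACLY, FASN, ACACA and SREBF2 were added after their values were seen. Promoter sequences are RefSeq's, in GRCh38.p14. P-values measure the spread between these libraries.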

Additional observations from a re-analysis of the deposited data

How the results depend on the processing

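Of 56 log2 fold changes of the genes named by rule in a comparison, none changed sign under any alternative. Over all 30 genes, 63 of the 480 values of the 16 comparisons changed sign without both libraries that stand apart, 7 of them for the vector in PAX6 KO (ACAT2 reached -0.73) and 6 for the vector in PDX1 KO (EBP reached -0.21). Of the 56 values, 46 kept their side of the threshold without both libraries that stand apart, 54 with DESeq2, 55 with RLE factors, 55 with the replicate block, 52 with lane set as a term, 49 with no filter on low counts, 45 with only the compared groups in the model and 43 with library size alone. Counts of the 30 genes that moved by more than 1.5 times follow. Library size alone gave 0 for PAX6 KO BFP and PDX1 KO BFP against WT BFP and for ISL1 KO BFP against PAX6 KO BFP, and 1 for PAX6 KO ISL1 OE against WT ISL1 OE. It called 5.66%, 10.2%, 2.52% and 3.78% of all genes there, in that order. No filter gave 0 for PAX6 KO BFP and PDX1 KO BFP against WT BFP, where 3.49% and 6.37% of all genes were called. Lane set gave 0 for PDX1 KO BFP against WT BFP, where 9.94% were. DESeq2 gave 2 for PDX1 KO BFP against WT BFP, 2 for PAX6 KO BFP against PDX1 KO BFP, 1 and 11 for the vector in PAX6 KO and PDX1 KO, and 1 for PDX1 KO ISL1 OE against WT ISL1 OE, where it called 16.7%, 7.28%, 2.15%, 22.7% and 3.07% of all genes. With only the compared groups in the model the counts against WT BFP were 19 for ISL1 KO BFP, 8 for PAX6 KO BFP and 12 for PDX1 KO BFP, where 28.2%, 24.3% and 33.3% of all genes were called. They were 5 for ISL1 KO BFP against PAX6 KO BFP, 22 for ISL1 KO BFP against PDX1 KO BFP, 6 for PAX6 KO BFP against PDX1 KO BFP, 11 and 0 for the vector in ISL1 KO and PDX1 KO, and, against WT ISL1 OE, 19 for ISL1 KO ISL1 OE and 0 for PAX6 KO ISL1 OE, where 7.91%, 26.3%, 15.5%, 7.31%, 0%, 27.7% and 0.174% of all genes were called, in that order. Leaving out both libraries that stand apart gave 16, 12 and 12 for ISL1 KO, PAX6 KO and PDX1 KO BFP against WT BFP. There 28.5%, 28.8% and 33.3% of all genes were called. Between the knockouts, in the order just used, it gave 8, 24 and 11, where 10.7%, 26.1% and 20.1% were. It gave 9 and 15 for the vector in ISL1 KO and PAX6 KO, where 5.92% and 6.02% were. Against WT ISL1 OE it gave 18 for ISL1 KO ISL1 OE and 12 for PAX6 KO ISL1 OE, where 23.7% and 14.5% were. PDX1 KO ISL1 OE was then left with 1 library. The replicate block gave 2 for PAX6 KO BFP against PDX1 KO BFP and 5 for PAX6 KO ISL1 OE against WT ISL1 OE. It called 3.59% and 4.92% of all genes there. In ISL1 KO same-numbered libraries correlated at 0.17, 0.099 and 0.307, so the numbers are not shown to pair them, although every library correlated best with its own number. With 1 library left out the counts ran from 2 to 4, 0 to 1 and 0 to 0 for ISL1 KO, PAX6 KO and PDX1 KO BFP against WT BFP, and from 0 to 1, 3 to 6 and 0 to 1 between the knockouts. They ran from 0 to 16 for the vector in PDX1 KO, from 2 to 5, 0 to 5 and 0 to 14 for the knockouts against WT under ISL1 OE, and from 0 to 12 for the difference of the PDX1 KO and WT vector effects. The share of all genes called moved too. In ISL1 KO BFP against WT BFP it was 3.27% without ISL1 KO BFP replicate 1, against 6.53% with all libraries. Library size alone put the median of all genes at 0.20 in ISL1 KO BFP and 0.24 in PAX6 KO BFP against WT BFP, where it was 0.03 and 0.00. The causes were not tested. With 2 or 3 libraries a group, changes can go undetected. In simulated counts for ISL1 KO BFP against WT BFP, 7 of 100 genes changed by 2-fold were called, and 73 of 100 changed by 4-fold. Those genes were drawn from the whole table, not from the 30. Few genes were changed, so the adjusted threshold was stricter than in the data, where 1449 genes were called. The simulated spread was that of all 21 libraries, including the 2 that stand apart, neither of which is in this comparison. These shares therefore do not measure how many changes were missed in the data. A gene that was not called is not shown to be unchanged.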
